A study of Mus musculus with 4 samples.

Results

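The genes described here are 36 components of the machinery that moves secretory proteins into and out of the endoplasmic reticulum (ER), measured in single cells of mouse pancreatic islets. They were taken by gene symbol from the 32285 genes of the count matrices, each symbol matched 1 row, and all 36 had transcripts counted in every library. By role they were 5 translocon genes (Sec61a1, Sec61b, Sec61g, Sec62 and Sec63), 4 genes of the translocon-associated protein (TRAP) complex (Ssr1 to Ssr4), 5 signal peptidase genes (Spcs1, Spcs2, Spcs3, Sec11a and Sec11c), 6 genes of the signal recognition particle (SRP) and its receptor (Srp9, Srp14, Srp19, Srp68, Srp72 and Srprb), 8 oligosaccharyltransferase (OST) genes (Rpn1, Rpn2, Dad1, Ddost, Stt3a, Stt3b, Ostc and Ost4) and 8 genes of vesicle formation and retrieval (Tmed2, Tmed9, Tmed10, Sec13, Sec31a, Sec24d, Kdelr1 and Kdelr2).

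SRP binds the signal sequence of a nascent secretory protein and delivers the ribosome to its receptor, after which the polypeptide passes through the Sec61 channel with the help of the TRAP complex. Signal peptidase removes the signal sequence, OST attaches N-linked glycans, and COPII-coated vesicles with p24 cargo receptors carry the product to the Golgi, from which KDEL receptors return escaped ER residents. Preproinsulin, preproglucagon, preprosomatostatin and the precursor of pancreatic polypeptide all enter this route, and insulin is the dominant secretory product of the β cell.

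Islets were isolated from male C57BL6/N mice that were wildtype (WT) or homozygous for an arginine-to-histidine substitution knocked into the endogenous Pax4 gene (HH), an allele carried by every cell of the animal. WT and HH littermates were taken at 12 weeks of age on standard chow diet (SCD), or at 16 weeks of age after 4 weeks of high-fat diet (HFD), so diet and age changed together. Each of the 4 groups was 1 library made from the pooled islets of 2 to 3 mice, sequenced as 3′ end tags with unique molecular identifiers (UMIs). Differences between genotypes or diets therefore had no replicate check, and intervals on them cover counting error only.

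The libraries held 4665 to 7123 barcodes, with 68011082 to 104810105 UMIs in total, of which 12404 cells were kept (3092 for WT SCD, 3082 for HH SCD, 1999 for WT HFD and 4231 for HH HFD). The WT HFD library stood apart, with 38.3% of its barcodes passing the cell filter against 61.6% to 67.8% in the other 3. Cells were grouped by the hormone that gave at least 70% of their hormone UMIs, which yielded 8081 Ins cells, 1553 Gcg cells, 937 Sst cells and 497 Ppy cells, besides 1020 cells with more transcripts of non-endocrine than of endocrine markers. All 8 β cell markers were detected in the Ins cells of each library, whereas the summed level of the 6 acinar markers there was 0.311 to 1.60 CPM (counts per 1e+06 UMIs). Any pair of libraries shared 6 to 11 barcodes. Pax4 itself had 0 UMIs in the Ins, Gcg, Sst, Ppy and non-endocrine cells of every library, which allows up to 3 counts in each, so its level could not be used to check the labels, and 3′ tags do not show the substitution.

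The promoters of members are shown because 11 members were higher together in Ins cells of HH mice on HFD, as described further on. RefSeq windows on GRCm38.p6 were matched to 27 of the 36 genes, and the 4 matched genes with the highest HH over WT ratios on HFD are printed as the 250 bases before the transcription start, 5′ to 3′ on the gene's strand. Capitals mark 3 short motifs on either strand, namely CCACG, the part of the ER stress response element that ATF6 binds, then CCAAT, the part of it that NF-Y binds, and TGACG, the core of cyclic AMP response and related elements. Ssr4 lies at chrX:73786773-73787022 (plus strand), Spcs1 at chr14:31001667-31001916 (minus strand), Sec61b at chr4:47474411-47474660 (plus strand) and Dad1 at chr14:54253930-54254179 (minus strand).
Ssr4: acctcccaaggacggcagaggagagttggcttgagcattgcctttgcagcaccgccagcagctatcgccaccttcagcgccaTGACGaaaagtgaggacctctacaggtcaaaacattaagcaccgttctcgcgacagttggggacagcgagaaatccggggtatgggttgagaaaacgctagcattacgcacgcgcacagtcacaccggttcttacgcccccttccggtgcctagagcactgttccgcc
Spcs1: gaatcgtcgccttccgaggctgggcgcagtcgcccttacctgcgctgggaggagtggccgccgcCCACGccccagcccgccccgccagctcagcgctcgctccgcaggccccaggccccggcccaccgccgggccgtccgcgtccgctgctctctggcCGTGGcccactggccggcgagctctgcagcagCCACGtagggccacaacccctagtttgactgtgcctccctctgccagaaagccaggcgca
Sec61b: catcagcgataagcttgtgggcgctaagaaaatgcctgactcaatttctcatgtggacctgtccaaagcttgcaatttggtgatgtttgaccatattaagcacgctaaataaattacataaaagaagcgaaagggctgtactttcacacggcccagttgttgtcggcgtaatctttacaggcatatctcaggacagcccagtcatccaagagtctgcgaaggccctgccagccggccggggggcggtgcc
Dad1: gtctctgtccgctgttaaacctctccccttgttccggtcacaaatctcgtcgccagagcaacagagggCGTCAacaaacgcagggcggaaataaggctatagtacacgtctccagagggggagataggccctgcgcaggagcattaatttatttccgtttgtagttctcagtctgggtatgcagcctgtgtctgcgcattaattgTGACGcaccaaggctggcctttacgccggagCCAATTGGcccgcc

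These 4 windows did not share a motif. Spcs1 held 3 copies of CCACG, Dad1 held 2 copies of TGACG and 2 copies of CCAAT that overlap on opposite strands, Ssr4 held 1 TGACG, and Sec61b held none of the motifs. Among the 27 matched genes, 15 (55.6%) had CCACG, compared with 28.3% of all 32851 promoter windows and 49.3% of the 2835 matched genes with at least 20 CPM in Ins cells. CCACG was present in 3 of the 9 matched genes that were higher in HH on HFD (Srp9, Ssr3 and Spcs1) and in 12 of the other 18. CCAAT was found in 13 of the 27 (48.1%), in 33.8% of all windows and in 40.7% of the matched genes at that level. TGACG was found in 9 of the 27 (33.3%), in 17.8% of all windows and in 37.3% of the matched genes at that level, so the members' share lay below that of genes of like level. The whole ER stress response element, in which CCAAT stands 9 bases before the motif CCACG, was found in 0 of the 27, in 0.113% of all windows and in 0.353% of the genes at that level, and TGACGTG, which contains TGACG, was found in 1 of the 27 (Sec24d), in 1.65% of all windows and in 4.02% of the genes at that level. These counts describe letters in a window and do not locate a binding site.

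To compare the machinery between islet cell types, UMIs were first summed over the 36 genes in each group of cells. Ins cells devoted more of their non-hormone RNA to these genes than Gcg or Sst cells did in each of the 4 libraries. As CPM of the UMIs outside the hormone genes, the summed level in Ins cells was 15099.8 for WT SCD, 16979 for HH SCD, 15947 for WT HFD and 20711 for HH HFD. In Gcg cells it was 8844, 8964, 9332 and 9939 in the same order, and in Sst cells it was 9649, 9781, 9677 and 10284. Ppy cells lay between them, at 12949.5 to 13278, and non-endocrine cells were lowest, at 4947 to 6408.

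Hormone transcripts took 58.2% to 61.0% of the UMIs of Ins cells, 33.3% to 38.3% in Gcg cells, 27.3% to 29.7% in Sst cells and 49.2% to 52.2% in Ppy cells. As a share of all UMIs, hormones included, the order was therefore different. Sst cells then held 6893 to 7228 CPM of the 36 genes, Ins cells 6315 to 8078 CPM and Gcg cells 5761 to 6179 CPM. Ins cells also had the largest RNA content, with a median of 24174.5 to 29575 UMIs per cell against 7898 to 12552 in Sst cells, and held on average 170 to 201 member UMIs per cell against 61.1 to 89.3 in Sst cells.

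**Figure D1:**
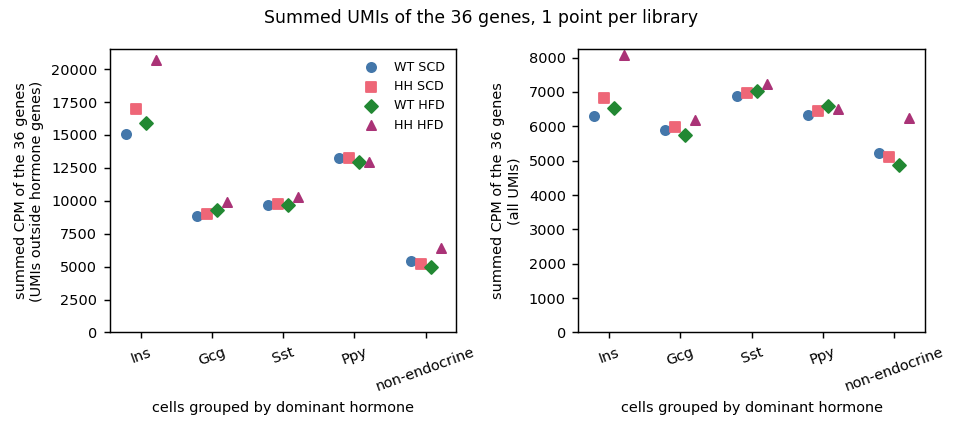
Summed UMIs of the 36 genes in cells grouped by dominant hormone, with 1 point per library (color and shape). The left panel gives CPM of the UMIs outside the hormone genes and the right panel CPM of all UMIs; Ins cells lie above Gcg and Sst cells in every library on the left, and only HH HFD Ins cells lie above all Sst cells on the right.

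Each gene was then tested between groups of cells on per-library sums with edgeR's quasi-likelihood test, with library as a block and trimmed mean (TMM) scaling, which sets the typical gene at no difference. In Gcg cells 35 of 36 members were lower than in Ins cells and 0 were higher at an adjusted p under 0.05, and the remaining gene was Sec11a. Across all 11557 genes tested, 31.2% were lower and 29.4% higher. The members' median log2 difference was -0.73, beside -0.01 for all genes. In Sst cells 35 of 36 were lower and 0 higher (30.1% and 29.2% of all genes), with a median of -0.94, and the remaining gene was Srp14. In Ppy cells 25 of 36 were lower and 0 higher (27.6% and 24.5% of all genes), with a median of -0.35. DESeq2 called 34, 34 and 25 members lower in Gcg, Sst and Ppy cells and 0 higher, and 0 members were higher even at an unadjusted p under 0.05. The 3 comparisons share the Ins cells and come from a joint fit of all 4 hormone groups with a shared estimate of the spread. Their p-values measure that spread among 4 libraries that differ in genotype and diet, and not the SDs printed beside them below. From the insulin transcripts counted in them, 1.19% to 2.72% of the RNA of Gcg, Sst and Ppy cells was estimated to come from Ins cells, and after subtracting it 35, 35 and 26 members were lower.

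The direction of the comparison depended on the scaling. Without TMM factors, on shares of all UMIs (a setting chosen after seeing the data), 16 members were lower and 3 higher in Gcg cells, 6 lower and 10 higher in Sst cells, and 12 lower and 7 higher in Ppy cells. The members' medians were then -0.14, 0.04 and -0.04, while the medians of all genes moved to 0.58, 0.96 and 0.28, and 66.7%, 81.9% and 41.4% of all genes were higher against 11.1%, 5.66% and 14.6% lower. The members' medians were below that of all genes on both scales. In the paragraphs by role that follow, values are on the TMM scale unless another scale is named.

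Signal peptidase, the enzyme that clips the signal peptide, held the members with the largest differences in Gcg and Ppy cells. Sec11c, 1 of its 2 alternative catalytic subunits, was 97.2, 108, 125 and 128 TMM-scaled CPM in Gcg cells of WT SCD, HH SCD, WT HFD and HH HFD, compared with 357, 454, 455 and 817 in Ins cells. No Gcg sum reached the lowest Ins sum, and the log2 difference was -2.12 ± 0.38 (SD, n = 4 libraries; edgeR adjusted p = 1.93e-11). In Sst cells Sec11c was 152 to 189 and in Ppy cells 183 to 226, with fitted log2 differences of -1.54 (adjusted p = 3.44e-09) and -1.34 (adjusted p = 6.77e-08). Its paralog Sec11a did not follow. Sec11a was 84.1 to 101 in Gcg cells and 82.5 to 128 in Ins cells, ranges that overlap (log2 -0.12 ± 0.23, n = 4 libraries, edgeR adjusted p = 0.24). In Ppy cells, at 111 to 120, Sec11a had the only positive fitted difference of the 36 genes, 0.19 (edgeR adjusted p = 0.096), and in Sst cells it was lower by -0.69 (adjusted p = 2.44e-06). The Sst direction turned with the scale. As CPM of all UMIs, Sec11a was higher in Sst than in Ins cells of each library, at 74.3 to 111 against 62.3 to 86.1.

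Spcs3, an accessory subunit of signal peptidase, was 188 to 215 in Ins cells against 56.5 to 73.3 in Gcg cells and 61.2 to 74.0 in Ppy cells, with a mean of 61.1 in Sst cells. The 3 other groups did not overlap with Ins cells, with log2 differences of -1.67 ± 0.18 in Gcg cells, -1.74 ± 0.10 in Sst cells and -1.61 ± 0.19 in Ppy cells (n = 4 libraries each). The other accessory subunits Spcs1 and Spcs2 were also lower in all 3 groups, by -0.30 to -0.97 and by -0.29 to -1.11.

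On the TMM scale OST, which transfers the glycan to asparagine, was lower for all 8 genes in Gcg and Sst cells and for 7 of 8 in Ppy cells, where Ostc was -0.07 (edgeR adjusted p = 0.571). Rpn1 and Rpn2, scaffold subunits of OST, were at 194 to 266 and 292 to 455 in Ins cells. Rpn1 was 92.6 to 99.3 in Gcg cells and 96.6 to 111 in Ppy cells, and Rpn2 was 139 to 170 and 186 to 200, all below the Ins range. The catalytic paralogs differed in size. Stt3a, the translocon-associated catalytic subunit, was -0.50 ± 0.04 in Gcg cells, whereas Stt3b, which acts largely after translocation, was -0.24 ± 0.19 there (n = 4 libraries each, edgeR adjusted p = 7.68e-07 and 0.0314), and the difference between the paralogs was not tested. As CPM of all UMIs, Ddost was higher in Sst than in Ins cells of each library, at 257 to 334 against 202 to 285. Rpn1 stayed lower in Sst cells on that scale, at 107 to 143 against 147 to 179.

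Translocon and TRAP genes were lower throughout Gcg and Sst cells on the TMM scale. The channel subunit Sec61a1 was 179 to 215 in Ins cells and 65.5 to 73.8 in Sst cells (log2 -1.46 ± 0.11, n = 4 libraries, edgeR adjusted p = 8.59e-13). The post-translational translocation factor Sec62 was the translocon gene that differed least in Sst cells (-0.19, edgeR adjusted p = 0.0382) and was not called in Ppy cells (-0.07, edgeR adjusted p = 0.502). All 4 TRAP genes were lower in Gcg cells, by -0.24 (Ssr2) to -0.87 (Ssr3), and 2 of 4 in Ppy cells (Ssr1 and Ssr3). As CPM of all UMIs, Sec62 was higher in Sst than in Ins cells of each library, at 185 to 256 against 118 to 139. Ssr2 was too, at 233 to 293 against 184 to 243, and it was also higher in Gcg cells, at 245 to 314. Sec61a1 stayed lower in Sst cells on that scale, at 89.6 to 108 against 132 to 162.

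SRP and its receptor deliver the nascent chain to the membrane. All 6 genes were lower in Gcg cells, by -0.43 (Srp68) to -0.99 (Srprb, the β subunit of the SRP receptor). Srp14, part of the Alu domain of SRP, was 182 to 207 in Sst cells and 193 to 251 in Ins cells (log2 -0.17 ± 0.17, n = 4 libraries, edgeR adjusted p = 0.0621).

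Among the vesicle genes, the p24 family member Tmed9 had the most negative difference of the 36 in Sst cells, at 69.7 to 91.7 against 290 to 345 in Ins cells (log2 -1.95 ± 0.26, n = 4 libraries, edgeR adjusted p = 2.08e-13). The KDEL receptors Kdelr1 and Kdelr2 were lower by -0.55 and -0.61 in Gcg cells and by -0.86 and -1.02 in Sst cells, but in Ppy cells they were at 117 to 133 and 161 to 174 against 122 to 158 and 172 to 200 in Ins cells and were not called (edgeR adjusted p = 0.184 and 0.09). In Ppy cells 4 of the 8 vesicle genes were lower, namely Tmed2, Tmed9, Sec31a and Sec24d.

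**Figure D2:**
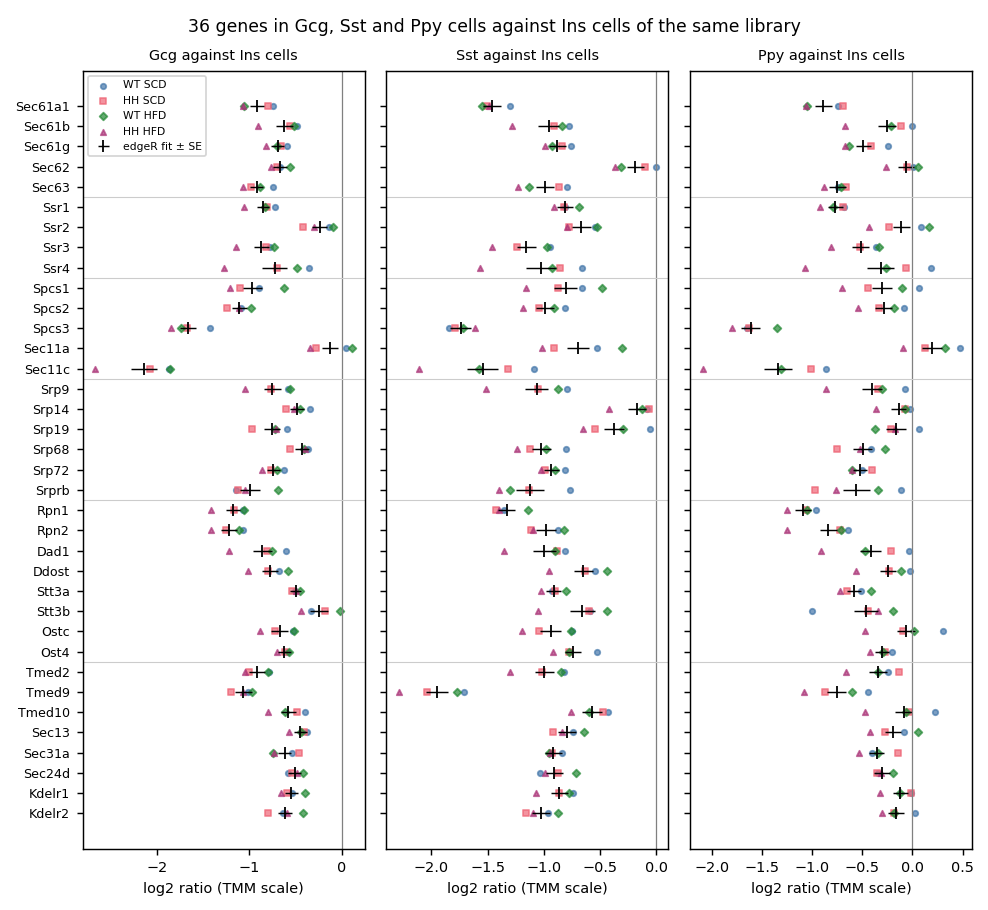
Log2 ratio of each of the 36 genes in Gcg, Sst and Ppy cells over Ins cells of the same library on the TMM scale, with a point per library and a black bar for the edgeR fit ± SE. Rows run by role from the translocon (top) through TRAP, signal peptidase, SRP and OST to the vesicle genes; nearly all points in the Gcg and Sst panels lie left of 0, with Sec11c and Spcs3 farthest in Gcg cells and Tmed9 and Spcs3 in Sst cells.

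Of 102 other genes of the same route found in the matrices (targeting factors, membrane insertion complexes, glycan synthesis and trimming enzymes, COPII and COPI coats, cargo receptors), 99 were tested in these comparisons. In Gcg cells 63 were lower and 11 higher, in Sst cells 73 and 7, and in Ppy cells 49 and 13. Sec16b, a scaffold of ER exit sites, had the lowest log2 difference in all 3, at -2.44 in Gcg cells and -2.83 in Ppy cells, while in Sst cells it had 0 to 2 UMIs per library against 442 to 910 in Ins cells. Serp1, a small translocon-associated protein, was also among the 3 lowest in each, at -1.64, -2.20 and -1.31. Tram2, a translocating-chain protein, was higher in all 3, by 1.47 in Sst cells and 1.32 in Ppy cells, at a low level of 1.19 CPM in Ins cells, and the retrieval receptor Kdelr3 was 2.15 higher in Ppy cells.

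Ins cells vary in how much of their RNA is insulin, so the members were next compared between the tertile of Ins cells with the highest insulin share and that with the lowest, cut within each library and with hormone genes removed. In WT mice on SCD all 36 members were higher in the high-insulin tertile, with a median log2 ratio of 0.44, and in HH on SCD 35 of 36 were higher (median 0.36). In WT on HFD 30 of 36 were higher (median 0.10). In HH on HFD the direction turned, with 7 of 36 higher and 29 lower (median -0.07). Of all genes tested, 51.4%, 49.8%, 50.4% and 49.8% were higher in the high-insulin tertile in the same order, with medians between 0.00 and 0.01. Summed over the 36 genes, the level went from 12947 to 17421 CPM of non-hormone UMIs in WT SCD, from 14915 to 19211 in HH SCD and from 15024 to 16736 in WT HFD, and went from 21076 to 20342 in HH HFD. As CPM of all UMIs, of which insulin takes a larger share in the high tertile by construction, the sums went from 6174 to 6493 in WT SCD and from 6786 to 6925 in HH SCD, but from 7099 to 6087 in WT HFD and from 9329 to 7035 in HH HFD, so the direction in WT HFD turned with the scale. The low-insulin Ins cells of HH mice on HFD held more member RNA by both measures than the high-insulin cells of any library.

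**Figure D3:**
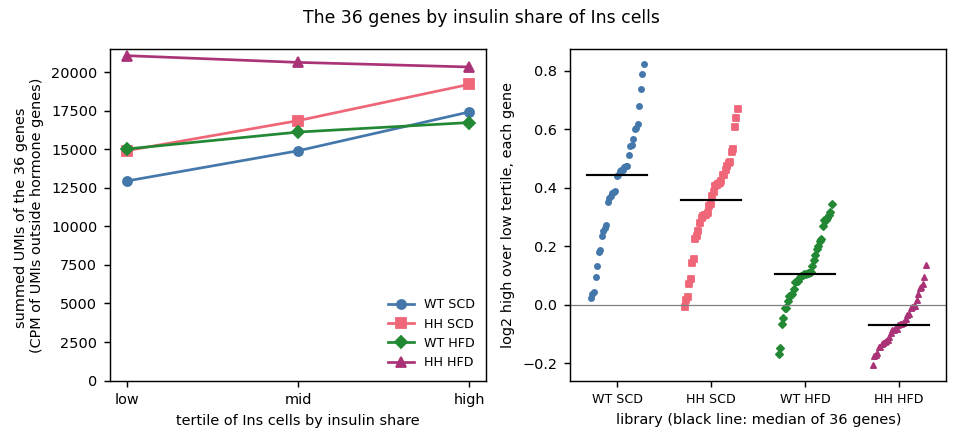
Left, summed UMIs of the 36 genes (CPM of the UMIs outside hormone genes) in the low, middle and high tertile of Ins cells by insulin share, 1 line per library. Right, log2 ratio of the high over the low tertile for each of the 36 genes, sorted within each library, with the median as a black line; the points lie above 0 in WT SCD and mostly below 0 in HH HFD.

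The fit over all 4 libraries called 6 of 36 members higher and 0 lower (4.40% and 4.85% of 12268 genes tested), with a median of 0.21 beside 0.00 for all genes. At an unadjusted p under 0.05 there were 23 members, all of them higher, beside 13.96% of all genes higher and 27.4% in either direction, and DESeq2 called 4 members higher and 0 lower (1.09% and 1.59% of all genes). Without the HH HFD library 25 members were higher, and without WT SCD, HH SCD or WT HFD 0 were, so the count rested on single libraries. The share of all genes called higher moved too, to 9.84% without HH HFD and to 0.653% to 0.888% without each of the others. The 6 were Spcs1, Spcs3, Srp14, Dad1, Tmed9 and Kdelr2.

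Spcs1 had the largest fitted difference, 0.43 (SE 0.12, edgeR adjusted p = 0.043), from per-library values of 0.82, 0.67, 0.31 and -0.06 in the order WT SCD, HH SCD, WT HFD and HH HFD. Tmed9 was at 0.60, 0.47, 0.22 and 0.10 and Dad1, a small OST subunit, at 0.54, 0.49, 0.35 and -0.04 (adjusted p = 0.0281 and 0.0441). Srp14, Spcs3, Tmed9 and Kdelr2 were above 0 in all 4 libraries, Srp14 by 0.14 to 0.48 (edgeR adjusted p = 0.02). Ssr4 and Sec11c had fits nearly as large, 0.36 and 0.39, but a wider spread between libraries (-0.16 to 0.74 and -0.15 to 0.79) and were not called (edgeR adjusted p = 0.0856 and 0.0697).

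Other readouts moved with the insulin share. The median UMI count per cell was 23107 in the low and 30335 in the high tertile in WT SCD, 22922 and 28725 in HH SCD and 26659 and 31533 in WT HFD, but 23832 and 24844.5 in HH HFD. The median mitochondrial share was 6.96% in the low and 4.23% in the high tertile in WT SCD and 4.27% and 3.65% in HH HFD. Leaving mitochondrial genes out of the total, the summed log2 ratio of the high over the low tertile was 0.39, 0.33, 0.15 and -0.04 in the order above. Of 13 ER chaperone genes 12, 12, 9 and 2 were higher in the high tertile, and the median log2 ratio of 83 ribosomal protein genes was 0.10, 0.07, -0.12 and -0.16. The other pathway genes had medians of 0.25, 0.22, 0.07 and -0.06. Their part in the members' difference was not tested, nor was the difference between libraries.

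HH and WT Ins cells were then compared on each diet, where genotype cannot be told apart from library. On SCD 30 of 36 members were above 0, beside 943 of all 3654 genes with a mean of at least 20 CPM. The members' median log2 ratio was 0.07, and only Ssr4 (0.295) and Sec11c (0.252, close to the limit) were at or above 0.25. With TMM factors 35 were above 0, the median was 0.16 and 6 were at or above 0.25, and 5 were on CPM without hormone and mitochondrial genes (1.68% of all genes above and 3.43% below). On HFD 11 of 36 were at or above 0.25 and 0 were at or below -0.25. In the libraries as a whole, 0.657% of 3654 genes with a mean of at least 20 CPM were at or above 0.25 and 4.63% at or below -0.25 on SCD, and 6.08% and 21.4% of 3504 genes on HFD. The medians of all genes were -0.07 and -0.11, and the members' median on HFD was 0.15. On HFD 28 of 36 members were above 0, beside 1028 of 3504 genes. The background depended on level. Among genes with a mean of at least 50 CPM, 30 of them members, 10.6% were at or above 0.25 and 16.7% at or below -0.25 on HFD. Their median was -0.04, beside 0.18 for those members.

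The 11 genes were Ssr4, Sec11c, Spcs1, Sec61b, Dad1, Srp9, Rpn2, Ssr3, Ostc, Sec11a and Ddost. They came from OST (4 of 8), signal peptidase (3 of 5), TRAP (2 of 4), the translocon (1 of 5) and SRP (1 of 6), and 0 of the 8 vesicle genes was among them. This split held on plain CPM. With TMM factors 7 of 8 OST, 4 of 5 signal peptidase, 3 of 4 TRAP, 3 of 5 translocon, 2 of 6 SRP and 2 of 8 vesicle genes (Kdelr1 and Tmed10) were at or above 0.25. Rpn1, with a log2 ratio of 0.25 that rounds to the limit from below, was the nearest outside, and Ddost and Sec11a at 0.29 were the nearest inside.

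Ssr4, the δ subunit of TRAP (GRCm38 chrX:73787028-73790830), was at 580 CPM in Ins cells of WT SCD, 712 for HH SCD, 668 for WT HFD and 1125 for HH HFD. HH HFD stood above the other 3, and the HH over WT log2 ratio was 0.30 (95% interval 0.27 to 0.32) on SCD and 0.75 (0.73 to 0.77) on HFD. Sec11c was at 270, 321, 342 and 551 CPM, with ratios of 0.25 and 0.69 (0.66 to 0.72). Its paralog Sec11a moved less, at 62.3, 72.0, 70.4 and 86.1 CPM, with ratios of 0.21 and 0.29 (0.22 to 0.36).

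Spcs1 was level between diets in WT but not in HH, at 214, 239, 215 and 315 CPM. Sec61b, the β subunit of the channel, was at 426, 455, 373 and 511 CPM, so WT HFD was lowest and HH HFD highest. Dad1 was at 373, 418, 438 and 586 CPM and Rpn2 at 221, 234, 244 and 307 CPM. In these 4 genes, as in Ssr4 and Sec11c, the HH HFD library was highest.

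Other members had smaller or negative ratios on plain CPM. Sec61a1, which forms the channel itself, was at 135, 132, 162 and 138 CPM and was lower in HH than WT on HFD, at -0.23 (-0.27 to -0.18), or -0.09 with TMM factors. Sec31a, of the outer COPII coat, had ratios of -0.14 on both diets, with 112, 102, 104 and 93.9 CPM, but -0.05 and -0.01 with TMM factors, and on HFD its ratio lay near the median of all genes. The catalytic pair Stt3a and Stt3b had ratios of 0.03 (-0.03 to 0.10) and 0.15 (0.03 to 0.27) on HFD, or 0.17 and 0.28 with TMM factors, where Stt3b passed the limit. Kdelr1 was 0.15 (0.09 to 0.21) and Kdelr2 -0.02 (-0.07 to 0.03), or 0.28 and 0.12 with TMM factors. The members thus did not move as 1 block, and single subunits of the same complex parted, as with Sec61b against Sec61a1 and Ssr4 against Ssr1 (-0.03, or 0.10 with TMM factors).

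**Figure D4:**
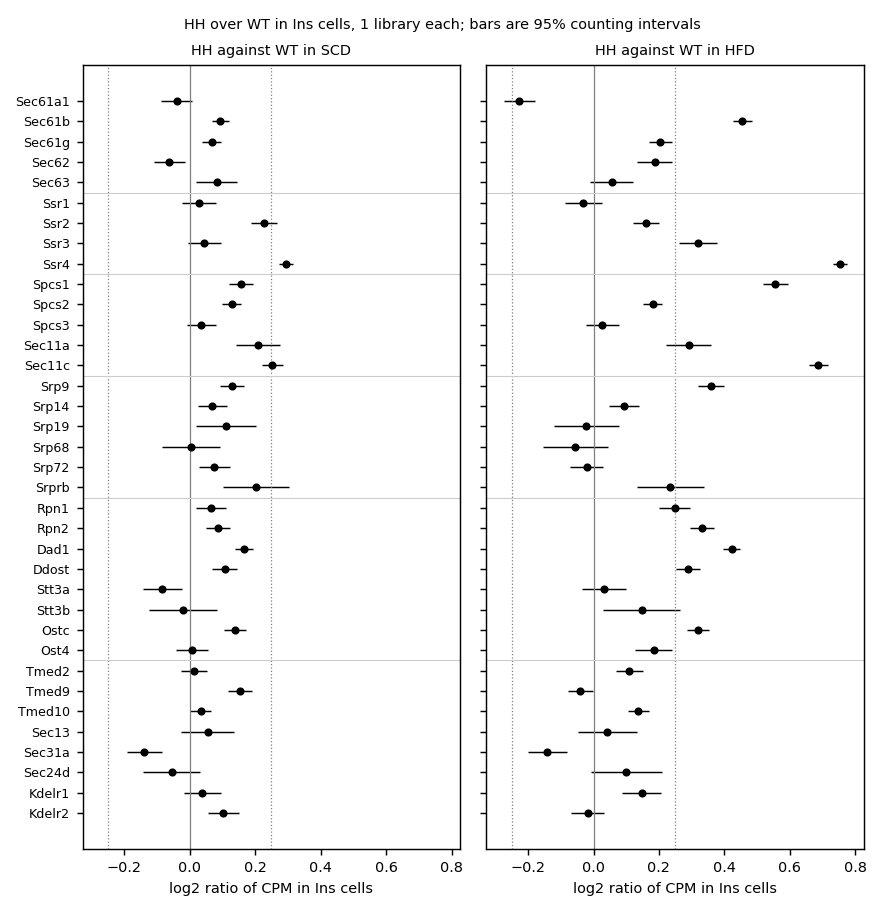
Log2 ratio of CPM in HH over WT Ins cells for the 36 genes on SCD (left) and HFD (right), in the order of roles from the translocon (top) to the vesicle genes, with 95% counting intervals and dotted lines at -0.25 and 0.25. Ssr4, Sec11c, Spcs1 and Sec61b lie farthest right on HFD.

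**Figure D5:**
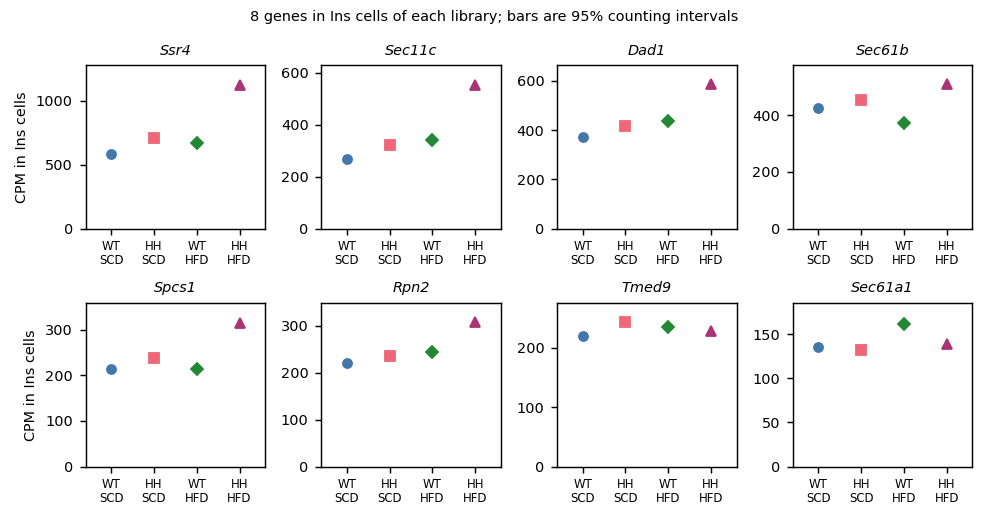
CPM of 8 of the genes in Ins cells of each of the 4 libraries, with 95% counting intervals that are mostly smaller than the symbols and axes from 0. HH HFD is the highest library for Ssr4, Sec11c, Dad1, Sec61b, Spcs1 and Rpn2 but not for Tmed9 or Sec61a1.

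The counts depended on how the libraries were scaled. With TMM factors 21 of 36 members were at or above 0.25 on HFD, and the split of all genes turned from 6.08% above and 21.4% below to 14.9% above and 6.20% below. The median of all genes moved from -0.11 to 0.03 and that of the members from 0.15 to 0.29. On SCD the split of all genes turned from 0.657% above and 4.63% below to 2.73% above and 1.30% below. Members stood above the typical gene on either scale.

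Several measured properties moved with the HH HFD result. Over the 36 members, the rank (Spearman) correlation of the log2 ratio with the mean CPM was 0.55, beside 0.25 over all genes. With transcript length it was -0.40, beside -0.35 over all genes. By transcript length, 7 of the 17 members in the shortest tertile of genes (up to 1996 bases), 4 of 14 in the middle and 0 of 5 in the longest were among the 11, with members' medians of 0.18, 0.18 and 0.03, while 10.5%, 5.13% and 2.61% of all genes in those tertiles were at or above 0.25. Of 81 ribosomal protein genes, 78 were above 0 and 17 at or above 0.25, with a median of 0.18, and with TMM factors 64 were at or above 0.25, with a median of 0.31. Of 13 ER chaperone genes 9 were at or above 0.25, among them Creld2 (85.5 CPM in WT HFD and 189 in HH HFD) and Sdf2l1 (249 and 412), while Hspa5, the main ER chaperone, was at 999 and 1060. Of the 8 β cell markers, Mafa (309 and 194 CPM), Slc2a2 (300 and 153), Nkx6-1 (251 and 187), G6pc2 (655 and 528) and Ucn3 (281 and 210) were lower in HH HFD. Iapp was higher (41325 and 60006 CPM), Ins1 was at 147043 and 147984 CPM and Ins2 at 401316 and 400194 CPM, and the list summed to 591480 and 609455 CPM. The median UMI count per Ins cell was 29575 in WT HFD and 24174.5 in HH HFD, the median number of genes 4059 and 3418, and the median mitochondrial share 4.88% and 3.98%, the latter the lowest of the 4 libraries. The WT HFD library, the reference here, was the one with 38.3% of its barcodes passing the cell filter. The part of each in the members' difference was not tested.

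In HH HFD 643 of 2884 Ins cells had no Mafa UMI but at least 1 of Gc, Aldh1a3 or Serpina7 after thinning to 3000 UMIs, compared with 73, 74 and 100 cells in WT SCD, HH SCD and WT HFD. The summed members were 22216 CPM of non-hormone UMIs in these cells and 20219 in the other Ins cells of HH HFD. Without them, 10 of 36 members were at or above 0.25 in HH against WT on HFD, beside 4.70% of all genes above and 18.0% below, and the summed log2 ratio was 0.27 beside 0.31 with them. Most marker lists of other cell types also summed higher in HH HFD than in WT HFD Ins cells. The 6 α cell markers summed to 1671 CPM in WT HFD and 3325 CPM in HH HFD, the 4 δ cell markers to 80.6 and 198 CPM, and the 2 PP cell markers to 416 and 1044 CPM. The 6 stromal markers summed to 1.98 and 11.1 CPM, the 6 endothelial markers to 5.64 and 18.8 CPM, the 4 ductal markers to 87.4 and 110 CPM and the 6 lymphoid markers to 19.2 and 22.4 CPM. Within the lymphoid list Igkc was at 5.29 and 14.2 CPM, Cd79a at 8.61 and 3.43 CPM and Cd3e at 1.40 and 0 CPM. The 5 myeloid markers were lower in HH HFD, at 56.0 and 53.6 CPM, as were the 6 acinar markers, at 1.60 and 1.09 CPM. For each of the 7 lists that were higher, HH HFD was the highest of the 4 libraries, and their part in the result was not tested, except that leaving out Ins cells with at least 10 lymphoid marker UMIs gave 11 of 36 members at or above 0.25.

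The same contrast in other cells was smaller in the endocrine groups. On HFD the summed log2 ratio of HH over WT was 0.10 in Gcg cells (30 of 36 members above 0), 0.04 in Sst cells (15 of 36) and -0.02 in Ppy cells (14 of 36), beside 0.31 in Ins cells (28 of 36). The members' medians in Gcg, Sst and Ppy cells were 0.08, -0.02 and -0.04, against 0.01, -0.05 and -0.05 for all genes. In non-endocrine cells it was 0.36, with 36 of 36 members above 0 and a median of 0.38 against 0.11 for all genes. The makeup of those cells differed between the libraries, with the 6 lymphoid markers summing to 422 CPM in WT HFD and 27101 CPM in HH HFD, where Igkc was at 21758 CPM and Jchain at 980 CPM, transcripts typical of antibody-secreting cells. Their part in that difference was not tested, and differences between cell groups were not tested.

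On other genes of the pathway, 68 had at least 20 CPM in Ins cells on HFD, of which 13 were at or above 0.25 and 3 at or below -0.25 in HH against WT, with a median of 0.06. Tmed3, a p24 protein, was highest at 0.54 (392 CPM in WT and 571 in HH), followed by Alg5 of glycan synthesis (0.54) and Ergic1 (0.46). The COPII cargo adaptor Sec24a was lowest at -0.57, followed by Sgta (-0.30) and the SNARE Gosr2 (-0.26). On SCD 0 of 68 passed in either direction, between -0.19 (Sec24a) and 0.22 (Cope). With TMM factors 31 of 68 were at or above 0.25 and 1 at or below -0.25 on HFD, and 4 and 0 on SCD. On CPM without hormone and mitochondrial genes, 2 of 88 were at or above 0.25 and 1 at or below -0.25 on SCD.

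The diet comparison, which also spans 4 weeks of age, gave changes in both directions. In WT Ins cells 2 members were at or above 0.25, Sec11c (0.34) and Sec61a1 (0.26), and 2 at or below -0.25, Sec24d (-0.44) and Sec61g (-0.42). Of 3700 genes 10.0% were at or above 0.25 and 18.3% at or below -0.25, so in this setting the members' counts were not above the background. In HH Ins cells 8 members were at or above 0.25 and 2 at or below, beside 11.4% and 23.9% of 3449 genes. The 8 were Sec11c (0.78), Ssr4 (0.66), Dad1 (0.49), Spcs1 (0.40), Rpn2 (0.39), Ddost (0.38), Ostc (0.31) and Sec11a (0.26).

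Sec61g, the γ subunit of the channel, was lower on HFD in both genotypes, at 364 CPM in WT SCD and 272 in WT HFD and at 382 in HH SCD and 313 in HH HFD (log2 -0.42 and -0.28). Sec24d, a COPII cargo adaptor, was at 40.3, 38.8, 29.8 and 31.9 CPM in WT SCD, HH SCD, WT HFD and HH HFD (-0.44 in WT and -0.28 in HH). With TMM factors neither reached -0.25 in HH (-0.23 each). Among the other pathway genes Tmed3 was among the highest in both genotypes, at 0.48 in WT and 0.87 in HH, as was the COPI subunit Copz2, at 0.45 and 0.71. The comparison of genotypes on HFD and that of diets in HH share the HH HFD library.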

How the data were processed

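Islets were pooled from 2 to 3 mice per library, and the deposited files hold raw UMI counts per gene and barcode, made by the authors with Cell Ranger 6.0 on GRCm38 as filtered matrices. The annotation release was not given in the sources used here, and the authors' correction for free RNA and their doublet removal came after these matrices. Single-cell counts were read with scanpy 1.11.5 in Python 3.11.15.

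Cells with under 10% mitochondrial UMIs, 3000 to 50000 UMIs and 2000 to 5000 genes were kept. Scrublet scored doublets per library, and the expected number (0.8% per 1000 cells, 348 cells in all) with the highest scores was removed, since its automatic threshold marked 102. A cell was assigned to the hormone that made up at least 70% of its hormone UMIs. Counts were summed per library and group of cells. Between groups of cells, sums were tested with edgeR 4.0.16 in R 4.3.3 (quasi-likelihood, TMM, filterByExpr, library as a block, Benjamini-Hochberg adjustment over all genes tested, threshold 0.05), with DESeq2 1.42.0 as an alternative. Tertiles of Ins cells were cut within each library by the Ins1 and Ins2 share of UMIs.

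With 1 library per genotype and diet, CPM ratios carry exact (Clopper-Pearson) 95% intervals for counting error only, and genes with a mean of at least 20 CPM were counted at or past a log2 ratio of 0.25, with 3 counts in place of 0. UMI depth per library sets this precision. The edgeR fits were tested on simulated data. The members and gene lists were chosen with earlier results of these data known. All 36 members were described by role, with the value in every library for the called members with the 3 highest and 3 lowest log2 values in a comparison and for the pairs Sec11a and Sec11c, Stt3a and Stt3b, and Kdelr1 and Kdelr2, and of the other pathway genes the 3 highest and 3 lowest per comparison. Alternatives covered cell filters, scaling, gene filters and leaving out each library.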

Additional observations from a re-analysis of the deposited data

Results flagged for a closer look

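On plain CPM, several members had ratios of opposite sign in the 2 backgrounds of the same comparison in Ins cells, and these differences were not tested, since each genotype and diet had 1 library. Sec62 had an HH over WT log2 ratio of -0.0621 on SCD and 0.187 on HFD. Tmed9 had 0.1547 on SCD and -0.0402 on HFD. With TMM factors neither changed direction, at 0.03 and 0.32 for Sec62 and 0.25 and 0.10 for Tmed9. Between diets, Sec61b was at -0.1944 in WT and 0.1673 in HH, Tmed9 at 0.1038 in WT and -0.0911 in HH, and Kdelr2 at 0.074 in WT and -0.0477 in HH. With TMM factors Sec61b (-0.19 and 0.22) and Tmed9 (0.11 and -0.04) still had opposite signs, while Kdelr2 was at 0.08 and 0.0016. The Tmed9 values in both comparisons share libraries.

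The summed members in Ins cells with high over those with low insulin share also changed direction, at 0.4282 in WT SCD, 0.3652 in HH SCD and 0.1557 in WT HFD against -0.0511 in HH HFD on the log2 scale of non-hormone UMIs. As CPM of all UMIs the sums were lower in the high tertile in both HFD libraries. The difference between libraries was not tested.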

How the results depend on the processing

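The members' median in Sst against Ins cells reversed on shares of all UMIs, from -0.94 to 0.04. The single genes followed were the called members with the most extreme log2 values in each comparison, and none of those reversed. Members outside that list did reverse, since in Sst cells 35 of 36 were lower in the main fit and 10 were higher on shares of all UMIs. Of the counts of members, 158 values under the alternatives stayed within 1.5 times the main count and 24 did not, and of the single genes followed, 267 values stayed on their side of the threshold and 24 no longer passed it. On shares of all UMIs, 3 members were higher and 16 lower in Gcg cells, 10 and 6 in Sst cells, and 7 and 12 in Ppy cells. Leaving out 1 library at a time gave 33 to 35 lower members in Gcg cells, 34 to 35 in Sst cells and 22 to 26 in Ppy cells, and 0 to 1 higher in Ppy cells (1 without HH HFD, Sec11a). For the high over the low insulin tertile, the count of higher members was 2 with a loose cell filter, 3 after thinning to 3000 UMIs, 24 with no filter on genes, 0 without the library block and 0 to 25 with 1 library left out (25 without HH HFD, 0 without any other). Of all genes tested, 2.46% were higher with the loose cell filter, 0.764% after thinning, 5.51% with no filter on genes and 0% without the block. The members' median was 0.37 with the loose cell filter, beside 0.21 in the main fit.

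For HH over WT on SCD, members at or above 0.25 numbered 1 with doublets kept, 5 on CPM without hormone and mitochondrial genes and 6 with TMM factors, and on HFD 21 with TMM factors. For HFD over SCD in WT they numbered 5 with a loose cell filter and 1 on cell means, beside 12.4% and 11.9% of all genes. At or below -0.25 there was 1 among genes of at least 50 CPM, beside 17.8% of all such genes. In HH 0 were at or below -0.25 with TMM factors and 1 among genes of at least 50 CPM, where fewer genes entered. Otherwise the cause was not tested. The settings without Mafa-negative cells, without cells holding lymphoid transcripts and on shares of all UMIs were chosen after seeing the data. No paired analysis of genotype or diet was possible, because each group was 1 library. An additive fit of genotype and diet over the 4 libraries, which would leave 1 residual degree of freedom, was not run, and comparisons between groups of cells already hold the library as a block. The low level of genes such as Srprb and Srp19 limits their precision.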
